A study of Mus musculus with 12 samples.

Results

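Gata6+Itga6+ cells are keratinocytes of the mouse epidermis that carried both integrin alpha 6 (Itga6) on their surface and the fluorescence of a Gata6 reporter. They are set here against the remaining basal cells, which carried Itga6 and are taken to have lacked the reporter signal and the bulge marker CD34. The samples were chosen by their titles alone, 6 of the 12 arrays of the study. Of these, 3 were titled as double positive for the reporter and Itga6. The other 3 were titled as Itga6 positive, with no mention of CD34 or of reporter signal in the cells. All came from the back skin epidermis of female Gata6-mtomato reporter mice on a C57BL6/CBA background, all in telogen, when hair follicles rest. The study also sorted CD34+ cells and Gata6+Itga6- cells from such mice, 3 arrays each, so the reporter allele was present in every population. Mice were matched for age and sex, and their age is not given in the sources used here. The labels call the samples biological replicates but do not say how many animals went into each, so p-values measure the spread between these samples. The remaining basal cells are defined by what they lack and can hold several kinds of basal cell.

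Gata6 is a zinc-finger transcription factor that binds GATA sequences. In skin it is known from the junctional zone of the upper hair follicle and from the sebaceous duct, where the follicle canal, the gland and the surface epidermis meet. Integrin alpha 6 pairs with integrin beta 4 in hemidesmosomes, which hold basal keratinocytes on the basement membrane, so both populations are basal by their gate. The comparison addresses which genes set the basal cells with an active Gata6 reporter apart from basal cells without it.

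The values are log2 levels, log2(intensity + 1), of 17853 genes on exon arrays, each the median of the gene's probe sets. As a floor, a log2 level of 2.46 is called the silent level: 95% of the population means of 1144 genes for olfactory and vomeronasal receptors lay at or under it. A gene was called at a limma adjusted p under 0.05 over all genes, in a fit of all 12 arrays. Where the lower of both means was under the silent level, that level took its place and the fold is given as "at least". The number of arrays limits the precision. Remaining basal replicates 1 and 2 were dimmer, with upper-quartile intensities of 12.1 and 12.4 against 16.0 in replicate 3 and 15.7 to 16.6 in the Gata6+Itga6+ arrays. Among 8256 genes over the silent level in either population the median log2 change was 0.26, against 0.0040 when only remaining basal replicate 3 was kept and 0.0016 after quantile normalization. Changes therefore have to be read against a general upward shift, whose source was not tested.

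The sort genes and the basal markers were checked first. Gata6 stood at log2 levels of 4.79, 4.21 and 4.18 in Gata6+Itga6+ against 2.74, 2.38 and 3.07 in remaining basal cells, so every array labelled with the reporter was above every array without it (3.17-fold, limma adjusted p = 0.00426). Itga6, on which both populations were gated, stood at 7.14, 7.41 and 7.31 in Gata6+Itga6+ against 7.33, 7.50 and 8.17 in remaining basal cells and was not called. Cd34 was under the silent level on all 6 arrays, at 1.48 to 1.94. The basal keratins Krt5 and Krt14 lay between 9.12 and 9.75 on every array, and Krt15, a keratin of basal and bulge cells, between 9.66 and 9.96. Trp63, the master regulator of stratified epithelium, stood at 8.37, 7.90 and 7.67 in Gata6+Itga6+ against 7.93, 7.87 and 8.58 in remaining basal cells, and Itgb4, the partner of Itga6, at 5.21, 5.28 and 5.24 in Gata6+Itga6+ against 4.87, 5.27 and 5.95 in remaining basal cells. None of these 5 basal markers was called (adjusted p from 0.417 for Krt5 to 0.938 for Itgb4), and each was present in both populations.

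In all, 242 of 17853 genes were called (1.36%), 191 with Gata6+Itga6+ higher (1.07%) and 51 with it lower (0.286%). Of the higher genes, 139 differed at least 2-fold, and of the lower ones 31. In bulk samples such as these, fewer cells with a transcript and less transcript per cell cannot be told apart. For none of the called genes did the 3 and 3 arrays overlap. That alone is common, since 10.4% of all genes had non-overlapping arrays with Gata6+Itga6+ higher and 5.3% with it lower. The counts rest in part on single arrays. Without Gata6+Itga6+ replicate 1 or 3, 117 and 113 genes were called higher and 29 and 26 lower. Without remaining basal replicate 1 or 2, 93 and 96 were called higher. Without remaining basal replicate 3, the brightest of its group, 304 were higher and 39 lower. The split also depends on scaling. Quantile normalization gave 162 higher and 126 lower genes, and a fit that held array brightness as a covariate gave 79 and 51.

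A smaller set held in 8 other fits. Of the 242 genes, 72 higher and 21 lower were also called in all 6 fits that left out 1 of these 6 arrays, after quantile normalization and with array brightness as a covariate. These 93 genes carry most of what follows, and a gene described below without a remark belongs to them; for any other the fit that ended its call is named. With remaining basal replicate 3 as the only array of its group, 0.493% of all genes were called, 0.241% higher and 0.252% lower. Of the genes above, 43 of the 191 higher genes and 22 of the 51 lower genes passed the test again, among them 39 of the 72 and 14 of the 21. Their direction could not change, since no called gene had overlapping arrays. The lone array is then assumed to vary like the other groups. With each gene read by its brightest probe set in place of the median, 47 of the 72 and 5 of the 21 were called, and in a fit of only these 6 arrays 59 and 7. The fit of only these 6 arrays ended the calls of 61 of the 114 called genes named in the text. From the smaller set these include Bmp4, Itga2, Robo1, Sema3c, Skint3 and Sox6. Among the genes named below as part of the smaller set, the brightest probe set ended the calls of Adh1, Aldh3a1, Apoe, Aqp3, Bmp4, Capn2, Ccn2, Cgnl1, Cyp27a1, Grhl3, Il12rb2, Il20ra, Il2rg, Itga2, Itgb8, Lgr4, Mgst1, Phldb2, Ptgr1, Rab27a, Robo1, Sema3c, Serpinb7, Sox6, Sprr1a and Stard4.

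**Figure D1:**
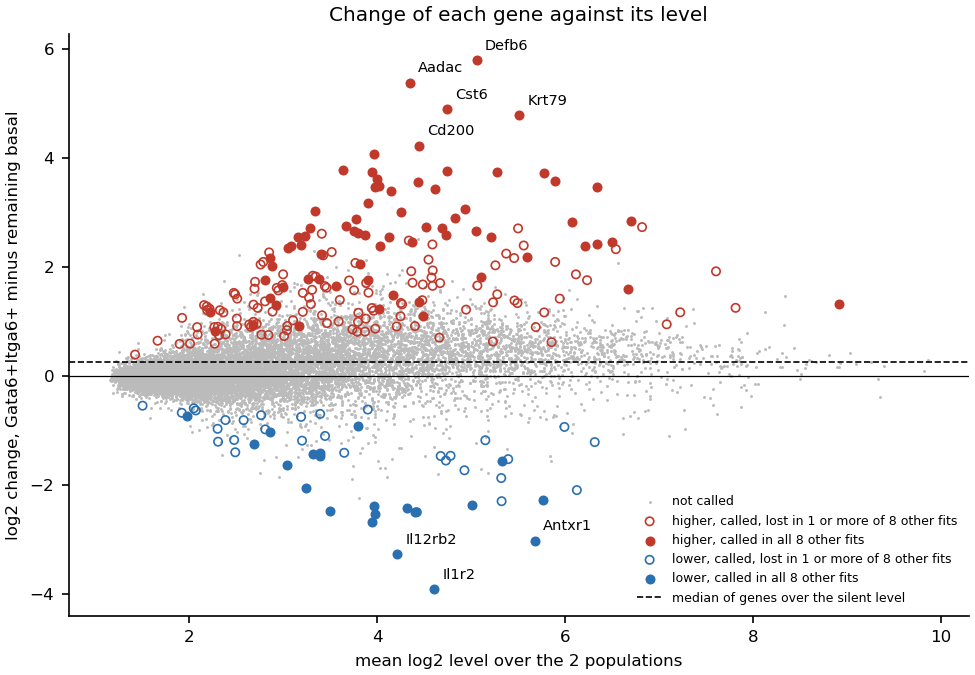
Each point is a gene, with its mean log2 level over both populations on the x axis and its log2 change, Gata6+Itga6+ minus remaining basal, on the y axis. Filled points are the 72 higher and 21 lower genes called in all 8 other fits, open points are called genes that lost the call in 1 or more, and the dashed line is the median change of 0.26 of genes over the silent level.

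**Figure D2:**
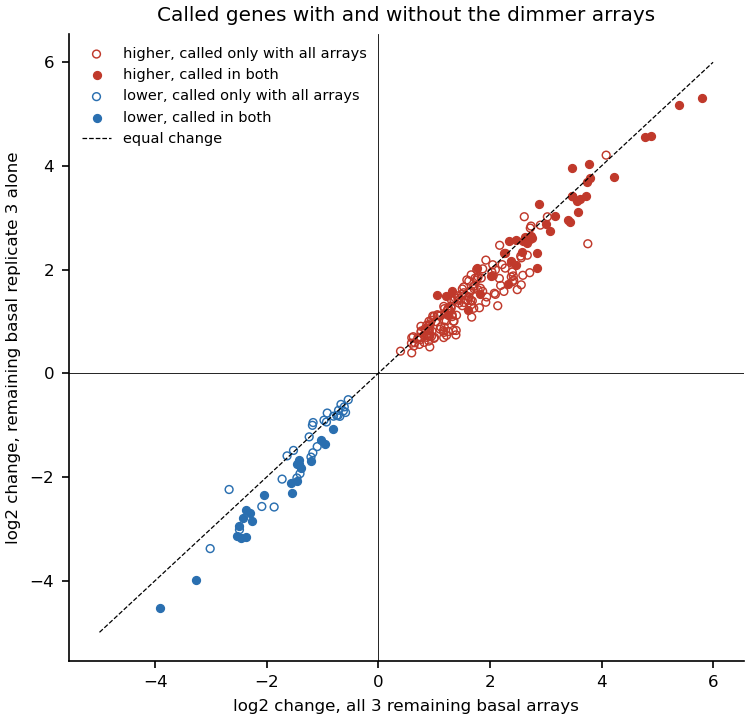
Log2 change of each called gene with all 3 remaining basal arrays (x axis) and with remaining basal replicate 3 alone (y axis), with the line of equal change. Filled points, 43 higher and 22 lower, were called in both; the side of 0 is fixed, because no called gene has overlapping arrays.

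The 250 bases upstream of the RefSeq transcription start (assembly GRCm38.p6) are shown for 3 of the largest higher genes and the largest lower gene described next, to show whether GATA letters stand there: chr8:19225228-19225477 on the plus strand for Defb6, chr3:60031538-60031787 on the plus strand for Aadac, chr15:101940325-101940574 on the minus strand for Krt79 and chr1:40085843-40086092 on the plus strand for Il1r2. Capitals mark matches, on either strand, to a motif of GATA with A or T before it and A or G after it.
Defb6: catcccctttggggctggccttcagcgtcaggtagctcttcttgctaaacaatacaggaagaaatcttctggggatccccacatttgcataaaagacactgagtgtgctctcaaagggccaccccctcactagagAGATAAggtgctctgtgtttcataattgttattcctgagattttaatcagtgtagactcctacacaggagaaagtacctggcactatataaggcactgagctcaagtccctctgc
Aadac: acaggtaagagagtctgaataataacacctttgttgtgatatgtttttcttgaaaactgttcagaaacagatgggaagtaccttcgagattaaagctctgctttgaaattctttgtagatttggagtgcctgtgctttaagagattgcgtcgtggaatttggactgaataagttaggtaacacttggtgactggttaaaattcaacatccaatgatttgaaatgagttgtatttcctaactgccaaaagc
Krt79: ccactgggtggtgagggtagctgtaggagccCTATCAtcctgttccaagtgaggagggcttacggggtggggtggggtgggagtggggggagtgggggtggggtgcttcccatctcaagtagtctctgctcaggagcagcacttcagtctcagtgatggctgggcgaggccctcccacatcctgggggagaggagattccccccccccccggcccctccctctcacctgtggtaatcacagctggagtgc
Il1r2: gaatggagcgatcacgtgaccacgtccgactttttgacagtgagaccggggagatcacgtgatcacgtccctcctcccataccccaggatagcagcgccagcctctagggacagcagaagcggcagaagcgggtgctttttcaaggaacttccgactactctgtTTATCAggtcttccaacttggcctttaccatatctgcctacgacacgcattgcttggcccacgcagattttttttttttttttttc
Defb6, Krt79 and Il1r2 have 1 match each and Aadac none. Such matches are common: 22.0% of 17777 windows of measured genes hold one, as do 18.0% of 211 windows of called higher genes and 23.9% of 67 windows of called lower genes. A match is a run of letters and not a measured binding site.

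Over all genes 1.07% were called higher, and every list was chosen with earlier results of these data known. List counts therefore describe a list and do not test it. Genes of the upper follicle and junctional zone gave the most called members of any list. Of 16 measured members of that list, 10 were called higher and none lower, 7 of them also against remaining basal replicate 3 alone, and the median log2 change of the list was 2.04 against 0.039 over all genes. With levels under the silent level raised to it, these medians were 2.04 and 0. Defb6, a beta-defensin, an antimicrobial peptide, stood at log2 levels of 8.49, 7.58 and 7.81 in Gata6+Itga6+ against 2.11, 1.72 and 2.65 in remaining basal cells (at least 45.2-fold higher, limma adjusted p = 4.5e-06). Krt79, a keratin of the follicle canal and the sebaceous duct, stood at 8.19, 7.85 and 7.68 in Gata6+Itga6+ against 3.44, 2.57 and 3.35 in remaining basal cells (27.6-fold, limma adjusted p = 4.5e-06). Cst6, an inhibitor of cysteine proteases, stood at 7.87, 7.19 and 6.51 in Gata6+Itga6+ against 2.09, 2.19 and 2.61 in remaining basal cells (at least 26.5-fold, limma adjusted p = 3.8e-05). For all 3 genes the lowest Gata6+Itga6+ array lay more than 3 log2 units above the highest remaining basal array. All 14 probe sets of Krt79 separated the arrays in this direction.

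Plet1, a surface protein that marks the junctional zone, was high in both populations and higher in the reporter cells, at 8.26, 7.95 and 8.18 in Gata6+Itga6+ against 5.17, 4.86 and 5.81 in remaining basal cells (7.2-fold, limma adjusted p = 0.00058). Lrig1, a feedback inhibitor of EGF receptors and a marker of junctional zone stem cells, stood at 5.13, 5.54 and 6.03 in Gata6+Itga6+ against 3.35, 3.42 and 4.09 in remaining basal cells (log2 change 1.94, SE 0.30). The water and glycerol channel Aqp3 stood at 5.65, 5.33 and 5.82 in Gata6+Itga6+ against 2.81, 3.09 and 3.51 in remaining basal cells (5.53-fold, limma adjusted p = 0.000714). Abi3bp, a matrix protein, stood at 6.63 ± 0.31 against 2.85 ± 0.29 (mean ± SD, n = 3; 13.7-fold). Krt17, a keratin of follicle epithelium, was the weakest called member (log2 change 1.50, SE 0.29). Among the 6 members that did not pass the test, Sox9, a transcription factor of follicle progenitors, stood at 3.82, 5.53 and 5.49 in Gata6+Itga6+ against 2.24, 2.62 and 3.59 in remaining basal cells (adjusted p = 0.139) and the stem cell receptor Lgr6 at 4.14, 4.13 and 3.98 in Gata6+Itga6+ against 3.51, 2.88 and 4.30 in remaining basal cells (0.606). The Sox9 arrays did not overlap, but they spread widely. The Lrig1 call ended without remaining basal replicate 1 or 2 (adjusted p up to 0.0613) and with brightness in the fit (adjusted p = 0.0898). The Krt17 call ended without any Gata6+Itga6+ array, Gata6+Itga6- replicate 1 or remaining basal replicate 1 or 2 (adjusted p up to 0.139), with brightness in the fit (adjusted p = 0.214) and after quantile normalization (adjusted p = 0.122).

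**Figure D3:**
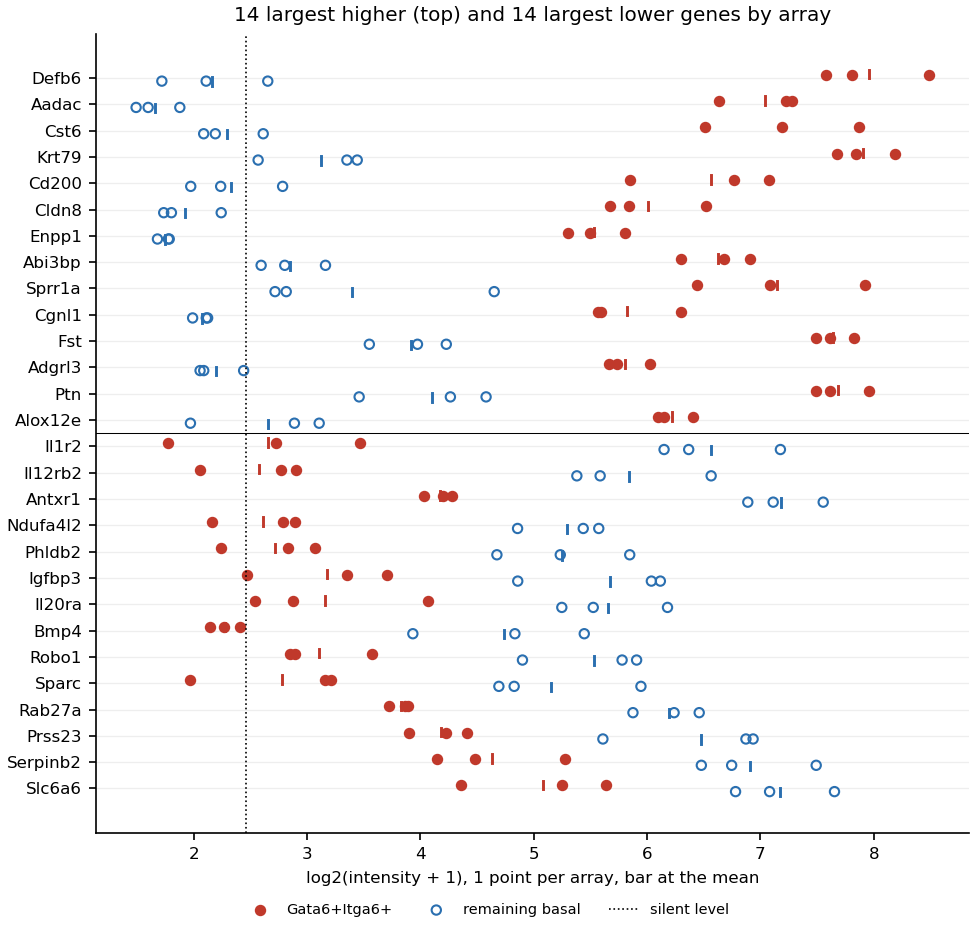
Log2 levels of the 14 largest higher genes (top) and the 14 largest lower genes (bottom), with 1 point per array, filled for Gata6+Itga6+ and open for remaining basal cells, and a bar at each mean. The dotted line is the silent level of 2.46, and in every gene shown the 3 and 3 arrays lie apart.

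Of 39 measured antimicrobial and defence genes 2 were called, Defb6 and Skint3, beside 1.36% of all genes called. Skint genes encode butyrophilin-like surface proteins of keratinocytes that shape the T cells of mouse epidermis; 3 of 13 measured genes of this family list were higher and none lower. Skint3 stood at 5.0, 4.18 and 3.99 in Gata6+Itga6+ against 1.77, 1.56 and 2.63 in remaining basal cells (at least 3.81-fold, limma adjusted p = 0.00453). Skint9 stood at 5.36, 4.49 and 4.58 in Gata6+Itga6+ against 2.49, 2.44 and 3.27 in remaining basal cells. Skint4 stood at 4.42, 3.11 and 4.44 in Gata6+Itga6+ against 1.78, 1.40 and 1.96 in remaining basal cells. All 9 probe sets of Skint3 put the reporter arrays higher, but the genes are close copies, so a probe may read more than 1 of them. The Skint9 call ended with brightness in the fit (adjusted p = 0.0555). That of Skint4 ended with brightness in the fit (adjusted p = 0.0752). None of the 3 was called against remaining basal replicate 3 alone. No member of the lists of 19 Ly6 surface proteins, 23 chemokines and their atypical receptors, 32 interferon response genes and 15 S100 proteins was called. Since 1.36% of all genes were called, lists of these lengths can hold none without standing apart from other genes.

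Lipid, retinoid and detoxifying enzymes formed a further set. Aadac, an arylacetamide deacetylase that hydrolyses esters, stood at 7.28, 6.63 and 7.22 in Gata6+Itga6+ against 1.60, 1.49 and 1.88 in remaining basal cells, with all remaining basal arrays under the silent level (at least 24-fold, limma adjusted p = 4.3e-07). Acsl4, which joins polyunsaturated fatty acids to coenzyme A, stood at 5.36, 6.32 and 5.85 in Gata6+Itga6+ against 2.02, 2.44 and 2.88 in remaining basal cells (at least 10.4-fold, limma adjusted p = 0.000189). It was the only called member among 32 genes of fatty acid activation, synthesis and oxidation. Alox12e, an epidermal lipoxygenase, stood at 6.10, 6.41 and 6.15 in Gata6+Itga6+ against 3.11, 1.97 and 2.89 in remaining basal cells (11.8-fold, limma adjusted p = 5.3e-05). Ptgr1, which reduces prostaglandins and leukotrienes, stood at 7.96, 7.22 and 7.30 in Gata6+Itga6+ against 3.93, 4.56 and 5.47 in remaining basal cells (7.15-fold, limma adjusted p = 0.00264). With the epoxide hydrolase Ephx2 (at least 1.3-fold) these were 3 of 32 lipoxygenase and prostaglandin genes, and 2 were called against remaining basal replicate 3 alone.

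Of 40 measured genes of the AhR and NRF2 response, which covers enzymes that clear foreign and reactive compounds, 8 were higher and 1 lower, but 2 and 0 against remaining basal replicate 3 alone. The glutathione transferase Gstm5 stood at 8.23, 8.07 and 7.91 in Gata6+Itga6+ against 4.75, 4.42 and 4.65 in remaining basal cells (11-fold, limma adjusted p = 1.0e-04). The aldehyde dehydrogenase Aldh3a1 stood at 7.22, 7.39 and 7.61 in Gata6+Itga6+ against 4.69, 4.84 and 5.55 in remaining basal cells (5.21-fold, limma adjusted p = 0.00577). Mgst1, a membrane-bound glutathione transferase, stood at 4.59, 3.59 and 3.66 in Gata6+Itga6+ against 1.98, 1.86 and 1.48 in remaining basal cells (at least 2.8-fold, limma adjusted p = 0.0055). The alcohol dehydrogenases Adh7 and Adh1 went opposite ways. Adh7 was higher (7.12 ± 0.45 against 5.35 ± 0.29; log2 change 1.76, SE 0.28) and Adh1 lower, at 2.16, 2.32 and 1.75 in Gata6+Itga6+ against 3.31, 3.33 and 3.30 in remaining basal cells (at least 1.81-fold). The other higher members were Aadac, given above, Aldh3a2 (log2 change 2.42, SE 0.35), Aldh1a1 (at least 2.78-fold) and Cyp1b1 (at least 4.78-fold). Nqo1, an NRF2 target, stood at 1.83 ± 0.14 against 1.78 ± 0.12 and Cyp1a1, an AhR target, at 1.55 ± 0.03 against 1.57 ± 0.10. Neither was over the silent level on any of the 6 arrays. Both were chosen after their values were seen, and they stand beside the 8 higher members, Aldh3a1 and Cyp1b1 among them. Whether these sensors were active was not tested. The receptor Ahr itself stood at 5.30, 5.73 and 5.79 in Gata6+Itga6+ against 4.42, 4.72 and 5.22 in remaining basal cells without passing the test (adjusted p = 0.182).

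Retinoid handling was represented by Crabp2, which carries retinoic acid to its nuclear receptors, at 6.93, 6.32 and 5.74 in Gata6+Itga6+ against 3.09, 2.18 and 3.41 in remaining basal cells (10.8-fold, limma adjusted p = 0.00103), and by Aldh1a1, which makes retinoic acid, 2 of 25 measured members and 1 against remaining basal replicate 3 alone. Among sterol genes 2 were called, both higher, beside 1.07% of all genes called higher. Stard4, a cholesterol carrier, stood at 3.24, 3.12 and 3.09 in Gata6+Itga6+ against 2.20, 2.25 and 2.20 in remaining basal cells (at least 1.61-fold) and Sqle, squalene epoxidase, at 3.11 ± 0.11 against 2.20 ± 0.18 (at least 1.57-fold), 2 of 20 and none against remaining basal replicate 3 alone. Cyp27a1, which hydroxylates sterols, stood at 4.79, 3.96 and 4.83 in Gata6+Itga6+ against 2.28, 2.36 and 2.21 in remaining basal cells (at least 4.19-fold, limma adjusted p = 0.000786). Apoe, a lipid carrier, was abundant in both and 2.5-fold higher (9.58 ± 0.07 against 8.25 ± 0.24, limma adjusted p = 0.0062). Of 25 sebaceous duct and gland genes only Acsl4, Mgst1 and the acyl-CoA synthetase Acsbg1 (log2 change 1.06, SE 0.21) were called. The desaturase Scd1, abundant in sebocytes, stood at 4.81, 4.52 and 4.96 in Gata6+Itga6+ against 4.77, 4.47 and 6.12 in remaining basal cells, with overlapping arrays. None of 28 ceramide and barrier lipid genes was called, which a list of that length can give when 1.36% of all genes are called. Adh7 lost its call without remaining basal replicate 1 (adjusted p up to 0.0541), with brightness in the fit (adjusted p = 0.0608) and after quantile normalization (adjusted p = 0.127). Aldh3a2 lost it with brightness in the fit (adjusted p = 0.0644). Aldh1a1 lost it without Gata6+Itga6+ replicate 2 or 3 or remaining basal replicate 1 or 2 (adjusted p up to 0.0933) and with brightness in the fit (adjusted p = 0.123). Acsbg1 was lost without Gata6+Itga6+ replicate 1 or 2, any Gata6+Itga6- array, any CD34+ array or remaining basal replicate 2 or 3 (adjusted p up to 0.145) and after quantile normalization (adjusted p = 0.472). Cyp1b1 was lost without Gata6+Itga6+ replicate 1 or 3, Gata6+Itga6- replicate 1 or 2, CD34+ replicate 2 or 3 or any remaining basal array (adjusted p up to 0.153) and with brightness in the fit (adjusted p = 0.262). Sqle was lost without any Gata6+Itga6+ array or remaining basal replicate 1 or 3 (adjusted p up to 0.0944) and after quantile normalization (adjusted p = 0.0981). Ephx2 was lost without any Gata6+Itga6+ array, Gata6+Itga6- replicate 3, any CD34+ array or any remaining basal array (adjusted p up to 0.158) and with brightness in the fit (adjusted p = 0.275).

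A few junction genes rose. The claudin Cldn8, a strand protein of tight junctions, stood at 5.67, 5.84 and 6.52 in Gata6+Itga6+ against 2.24, 1.73 and 1.80 in remaining basal cells (at least 11.7-fold, limma adjusted p = 0.00353). Cgnl1, or paracingulin, which links junctions to actin, stood at 6.30, 5.57 and 5.59 in Gata6+Itga6+ against 1.99, 2.11 and 2.12 in remaining basal cells (at least 10.3-fold, limma adjusted p = 5.3e-05), and all 20 of its probe sets separated the arrays. Its brightest probe set alone gave a log2 change of 0.39 (adjusted p = 0.67). With Marveld2, tricellulin, these were 3 of 21 tight and gap junction genes, and 1 of the 21 was called against remaining basal replicate 3 alone. Of 22 genes of desmosomes and adherens junctions 3 were higher, and 1 against remaining basal replicate 3 alone or with brightness in the fit. Dsc1, a desmosomal cadherin of suprabasal cells, stood at 6.09, 5.81 and 5.23 in Gata6+Itga6+ against 2.70, 2.28 and 1.74 in remaining basal cells (at least 9.51-fold, limma adjusted p = 8e-05). Cdh1, E-cadherin, and Ctnnb1, beta-catenin, were higher by smaller amounts (log2 change 0.95, SE 0.20, and log2 change 1.17, SE 0.24). The gap junction protein Gja1 had the largest lower mean of this group without passing the test (log2 change -2.23, adjusted p = 0.16). The call of Marveld2 (log2 change 0.82, SE 0.14) ended without any Gata6+Itga6+ array or remaining basal replicate 1 or 2 (adjusted p up to 0.0735), with brightness in the fit (adjusted p = 0.108) and after quantile normalization (adjusted p = 0.325). That of Cdh1 ended without any Gata6+Itga6+ array, any Gata6+Itga6- array, CD34+ replicate 1 or remaining basal replicate 1 or 2 (adjusted p up to 0.182), with brightness in the fit (adjusted p = 0.214) and after quantile normalization (adjusted p = 0.218). That of Ctnnb1 ended without Gata6+Itga6+ replicate 1 or 3, any Gata6+Itga6- array, any CD34+ array or remaining basal replicate 1 or 2 (adjusted p up to 0.192) and with brightness in the fit (adjusted p = 0.243).

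Adhesion to matrix changed in single genes. Of 33 genes of integrins, hemidesmosomes and basement membrane, 1 was higher and 1 lower. Itgb8, an integrin chain that activates latent TGF-beta, stood at 5.53, 5.20 and 4.92 in Gata6+Itga6+ against 2.25, 2.80 and 1.95 in remaining basal cells (at least 6.76-fold, limma adjusted p = 0.000255), with all 3 reporter arrays more than 2 log2 units above the others. Itga2, a chain of the collagen receptor, stood at 2.39, 2.62 and 3.00 in Gata6+Itga6+ against 3.91, 4.04 and 4.42 in remaining basal cells (2.74-fold lower, limma adjusted p = 0.0055). Of 35 matrix and matricellular genes, Abi3bp, the protease inhibitor Timp2 (4.28 ± 0.24 against 1.89 ± 0.33; at least 3.53-fold) and Ccn2 were higher, and Antxr1, Sparc and Ccn1 lower, against 1 higher and 2 lower with remaining basal replicate 3 alone. Sparc, a calcium-binding matrix protein, stood at 1.97, 3.21 and 3.16 in Gata6+Itga6+ against 4.83, 4.69 and 5.95 in remaining basal cells (5.2-fold lower, limma adjusted p = 0.0157). Sparc is also a fibroblast marker, and beside it 12 of 17 fibroblast markers, Col3a1, Dcn, Lum and Pdgfra among them, were under the silent level on all 6 arrays. The summed intensity of that list ran from 111.7 to 132.0 in Gata6+Itga6+ and from 101.9 to 143.8 in remaining basal arrays. Without Sparc it ran from 103.5 to 129.1 and from 77.1 to 83.1. Gsn, the actin-severing protein gelsolin, which epithelia also make, stood at 6.25 ± 0.22 against 5.25 ± 0.11 and was not called (adjusted p = 0.0678). Ccn1 and Ccn2, related matricellular proteins, went opposite ways. Ccn1 stood at 4.11, 5.19 and 4.61 in Gata6+Itga6+ against 5.85, 6.49 and 6.13 in remaining basal cells. Ccn2 stood at 4.31, 4.97 and 5.09 in Gata6+Itga6+ against 3.00, 3.09 and 2.96 in remaining basal cells (limma adjusted p = 0.00374). The Ccn1 call ended without Gata6+Itga6+ replicate 1 or 3 or any remaining basal array (adjusted p up to 0.121) and with brightness in the fit (adjusted p = 0.0965).

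Several genes best known from the hair follicle bulge were higher with the Gata6 reporter, although Cd34 was under the silent level on all 6 arrays. Of 28 bulge genes 8 were higher and 1, Sparc, lower, 5 and 1 against remaining basal replicate 3 alone, with a median log2 change of 0.42 (0.24 with low levels raised to the silent level). Cd200, a surface protein that restrains immune cells, stood at 5.85, 7.07 and 6.76 in Gata6+Itga6+ against 2.24, 1.97 and 2.78 in remaining basal cells (at least 17.2-fold, limma adjusted p = 1.0e-04), and in the same fit at 7.52 in CD34+ and 7.50 in Gata6+Itga6- cells. Fst, follistatin, which binds activins, stood at 7.83, 7.62 and 7.49 in Gata6+Itga6+ against 3.97, 3.55 and 4.23 in remaining basal cells (13.2-fold, limma adjusted p = 5.6e-06). Ptn, the growth factor pleiotrophin, stood at 7.95, 7.49 and 7.62 in Gata6+Itga6+ against 3.46, 4.26 and 4.58 in remaining basal cells (12-fold, limma adjusted p = 0.000199). Lhx2, a transcription factor of follicle stem cells, stood at 5.26, 5.08 and 5.14 in Gata6+Itga6+ against 2.81, 2.30 and 2.61 in remaining basal cells (6-fold, limma adjusted p = 5.3e-05). Aspn, asporin, stood at 4.32, 4.23 and 5.02 in Gata6+Itga6+ against 1.79, 1.89 and 2.18 in remaining basal cells (at least 4.18-fold, limma adjusted p = 0.000602).

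These bulge-list genes were not at bulge level throughout. Lhx2 averaged 8.41 in CD34+ and 5.67 in Gata6+Itga6- cells, and Aspn 6.49 in CD34+ and 1.42 in Gata6+Itga6- cells. The Gata6+Itga6+ means of 5.16 and 4.52 lay below those of CD34+ cells for both. Lgr5, the receptor of bulge and germ stem cells, was under the silent level on all 6 arrays. Ectonucleotidases were also higher: Enpp1, which cuts ATP outside the cell, at 5.30, 5.81 and 5.50 in Gata6+Itga6+ against 1.78, 1.68 and 1.77 in remaining basal cells (at least 8.42-fold, limma adjusted p = 4.9e-05). Nt5e, CD73, which makes adenosine from AMP, stood at 5.57, 3.88 and 5.11 in Gata6+Itga6+ against 2.00, 1.63 and 1.83 in remaining basal cells (at least 5.24-fold, limma adjusted p = 0.00337). With Cd200 they were the 3 called members of 22 immune-modulating surface proteins and ectonucleotidases, all higher, 2 of 22 against remaining basal replicate 3 alone. For both enzymes every remaining basal array was under the silent level.

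Of 57 epidermal transcription factors, 7 were higher and 1 lower, but only 1 and 1 against remaining basal replicate 3 alone. The 7 include Gata6, whose reporter defined the sort, and over all genes 1.07% were called higher. Besides Gata6 and Lhx2, Grhl3, a driver of barrier formation, stood at 5.10, 4.78 and 5.24 in Gata6+Itga6+ against 3.81, 3.80 and 4.19 in remaining basal cells (2.15-fold, limma adjusted p = 0.0036). Egr2, an inducible zinc-finger factor, stood at 8.19, 8.23 and 8.15 in Gata6+Itga6+ against 4.71, 6.30 and 5.35 in remaining basal cells (6.67-fold). Vdr, the vitamin D receptor, stood at 6.88, 6.64 and 6.76 in Gata6+Itga6+ against 3.86, 4.42 and 4.81 in remaining basal cells (5.28-fold). Nfatc1, a regulator of bulge quiescence, and Nfib were higher by log2 changes of 1.65 and 1.17. Sox6, the single lower factor, stood at 2.87, 2.71 and 2.23 in Gata6+Itga6+ against 3.89, 3.82 and 4.36 in remaining basal cells (2.68-fold lower, limma adjusted p = 0.0036), and 21 of its 29 probe sets put all remaining basal arrays on top. The Egr2 call ended with brightness in the fit (adjusted p = 0.0902). Vdr was lost without Gata6+Itga6+ replicate 1 or 3 or remaining basal replicate 1 or 2 (adjusted p up to 0.0553). Nfatc1 was lost without Gata6+Itga6+ replicate 1 or remaining basal replicate 1 or 2 (adjusted p up to 0.0808) and with brightness in the fit (adjusted p = 0.109). Nfib was lost without any Gata6+Itga6+ array, Gata6+Itga6- replicate 3, any CD34+ array or remaining basal replicate 1 or 2 (adjusted p up to 0.152) and with brightness in the fit (adjusted p = 0.262).

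In the BMP and TGF-beta pathway Bmp4 was lower and several antagonists higher. Bmp4, a growth factor that holds follicle stem cells at rest and promotes differentiation, stood at 2.40, 2.15 and 2.26 in Gata6+Itga6+ against 4.83, 3.93 and 5.45 in remaining basal cells (at least 4.84-fold lower, limma adjusted p = 0.00264). The median over the probe sets of Bmp4 was thus under the silent level on every Gata6+Itga6+ array. Its brightest probe set alone gave a log2 change of -0.19 (adjusted p = 0.942). Bmp7, another ligand, stood at 5.77, 4.28 and 5.45 in Gata6+Itga6+ against 4.00, 3.70 and 3.46 in remaining basal cells, with every Gata6+Itga6+ array above the others but no call (adjusted p = 0.0874). Of the secreted antagonists of the pathway, Fst was higher, as given above, and so was Sostdc1, which binds BMPs and blocks Wnt receptors, at 6.31, 6.14 and 7.06 in Gata6+Itga6+ against 4.17, 3.66 and 4.92 in remaining basal cells (4.76-fold). Grem1, gremlin, was higher at 3.39, 3.67 and 4.29 in Gata6+Itga6+ against 1.77, 1.74 and 1.69 in remaining basal cells (at least 2.5-fold). The antagonist Nog, noggin, did not pass the test and lay near the silent level at 1.89, 2.40 and 1.88 in Gata6+Itga6+ against 2.62, 2.38 and 2.06 in remaining basal cells. The ligand Tgfb2 (at least 2.05-fold) and the latency protein Ltbp1 (log2 change 1.59, SE 0.29) were the other called members, making 5 of 46 higher and 1 lower, against 1 and 2 with remaining basal replicate 3 alone. The receptor Bmpr1a did not pass the test, at 4.82 ± 0.51 against 4.24 ± 0.86 (adjusted p = 0.661). The call of Sostdc1 ended without remaining basal replicate 1 (adjusted p up to 0.0505) and with brightness in the fit (adjusted p = 0.0741). That of Grem1 ended without Gata6+Itga6+ replicate 3 or remaining basal replicate 1 or 2 (adjusted p up to 0.0633) and with brightness in the fit (adjusted p = 0.11). Tgfb2 was lost without Gata6+Itga6+ replicate 1 or 3 or any remaining basal array (adjusted p up to 0.111) and with brightness in the fit (adjusted p = 0.181). Ltbp1 was lost without any Gata6+Itga6+ array or any remaining basal array (adjusted p up to 0.107) and with brightness in the fit (adjusted p = 0.176).

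Among Wnt genes, Lgr4, a receptor for R-spondins that raises Wnt signalling, stood at 5.58, 5.37 and 5.28 in Gata6+Itga6+ against 2.50, 2.86 and 3.18 in remaining basal cells (5.91-fold, limma adjusted p = 0.00152). Of the 47 measured members, Lgr4, Sostdc1 and the receptor Fzd7 (log2 change 1.20, SE 0.20) were higher and the ligand Wnt5a lower (1.76 ± 0.07 against 2.38 ± 0.09), although its levels were all close to or under the silent level. The Fzd7 call ended without remaining basal replicate 1 (adjusted p up to 0.0734), with brightness in the fit (adjusted p = 0.125) and after quantile normalization (adjusted p = 0.104). That of Wnt5a ended without Gata6+Itga6+ replicate 1 or 3 (adjusted p up to 0.0588) and with brightness in the fit (adjusted p = 0.0938). Neither these nor Lgr4 were called against remaining basal replicate 3 alone. Of 24 Notch genes only Notch2 was called (log2 change 0.98, SE 0.20), a call that ended without Gata6+Itga6+ replicate 1 or 3, Gata6+Itga6- replicate 2 or 3, any CD34+ array or any remaining basal array (adjusted p up to 0.161), with brightness in the fit (adjusted p = 0.243) and after quantile normalization (adjusted p = 0.191).

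Growth factor receptors differed by type. Fgfr1 stood at 3.99, 4.20 and 4.63 in Gata6+Itga6+ against 2.77, 2.38 and 2.80 in remaining basal cells (3.08-fold higher). Fgfr2, the usual FGF receptor of keratinocytes, stood at 3.63, 4.30 and 3.94 in Gata6+Itga6+ against 5.02, 5.23 and 6.26 in remaining basal cells (2.92-fold lower). In both genes the 3 and 3 arrays lay apart, in opposite directions. Igfbp3, which binds insulin-like growth factors, stood at 3.36, 3.70 and 2.47 in Gata6+Itga6+ against 6.04, 4.86 and 6.12 in remaining basal cells (5.64-fold lower). Epgn, epigen, an EGF receptor ligand, stood at 2.23, 1.67 and 1.78 in Gata6+Itga6+ against 3.25, 3.10 and 2.85 in remaining basal cells (at least 1.52-fold lower). With Lrig1 and Fgfr1 higher, 2 of 45 genes of EGF, FGF and IGF signalling rose and 3 fell, against 0 and 2 with remaining basal replicate 3 alone. The Fgfr1 call ended with brightness in the fit (adjusted p = 0.0689). Epgn was lost with brightness in the fit (adjusted p = 0.0582). Igfbp3 was lost without remaining basal replicate 1 (adjusted p up to 0.0542). Fgfr2 was lost without any Gata6+Itga6+ array, any Gata6+Itga6- array, any CD34+ array or any remaining basal array (adjusted p up to 0.161), yet it was called with brightness in the fit, after quantile normalization and against remaining basal replicate 3 alone.

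Guidance and contact receptors gave 5 higher and 2 lower of 42 genes, 2 and 2 against remaining basal replicate 3 alone. Robo1, a receptor for Slit proteins, stood at 2.85, 3.57 and 2.89 in Gata6+Itga6+ against 4.90, 5.78 and 5.91 in remaining basal cells (5.37-fold lower, limma adjusted p = 0.00136), while its ligand Slit3 was higher (3.97 ± 0.27 against 2.44 ± 0.20; at least 2.85-fold). Sema3c stood at 4.61, 4.47 and 4.57 in Gata6+Itga6+ against 5.79, 5.88 and 6.67 in remaining basal cells (2.96-fold lower, limma adjusted p = 0.00539). Sema3e stood at 3.74, 3.93 and 4.01 in Gata6+Itga6+ against 1.74, 1.88 and 2.01 in remaining basal cells (at least 2.7-fold higher, limma adjusted p = 0.00042), so these related semaphorins differed in opposite directions. Efnb2, a membrane-bound ligand of Eph receptors, stood at 7.63, 7.49 and 8.08 in Gata6+Itga6+ against 5.04, 5.61 and 5.16 in remaining basal cells (5.51-fold, limma adjusted p = 0.00152), and Efnb1 was higher by a log2 change of 1.34. The adhesion receptors Adgrl2 and Adgrl3, latrophilins that bind partners on neighbouring cells, were higher together. Adgrl2 stood at 6.39, 6.19 and 6.26 in Gata6+Itga6+ against 3.41, 3.30 and 3.42 in remaining basal cells (7.48-fold, limma adjusted p = 0.00182). Adgrl3 stood at 6.03, 5.74 and 5.66 in Gata6+Itga6+ against 2.06, 2.09 and 2.44 in remaining basal cells (at least 10.2-fold, limma adjusted p = 5.3e-05). The Slit3 call ended without Gata6+Itga6+ replicate 1 or 2 or remaining basal replicate 2 (adjusted p up to 0.0794) and with brightness in the fit (adjusted p = 0.125). That of Efnb1 ended without Gata6+Itga6+ replicate 1 or 3, Gata6+Itga6- replicate 1, any CD34+ array or remaining basal replicate 1 or 2 (adjusted p up to 0.144) and with brightness in the fit (adjusted p = 0.209). Sema6a, the last of the 5, was higher by at least 1.49-fold and was lost without any Gata6+Itga6+ array, any Gata6+Itga6- array, any CD34+ array or any remaining basal array (adjusted p up to 0.19) and with brightness in the fit (adjusted p = 0.226).

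Cytokine receptors were among the largest lower genes. Il1r2, the decoy receptor that binds interleukin 1 without signalling, stood at 2.72, 3.46 and 1.77 in Gata6+Itga6+ against 6.37, 6.15 and 7.18 in remaining basal cells (15.1-fold lower, limma adjusted p = 0.00103). Il12rb2, a chain of the interleukin 12 receptor, stood at 2.77, 2.90 and 2.06 in Gata6+Itga6+ against 5.59, 5.38 and 6.57 in remaining basal cells (9.63-fold lower, limma adjusted p = 0.000944). Il20ra, a receptor chain for interleukins 19, 20 and 24, stood at 2.87, 4.07 and 2.54 in Gata6+Itga6+ against 5.25, 5.52 and 6.18 in remaining basal cells (5.62-fold lower, limma adjusted p = 0.00768). In each of these 3 genes all remaining basal arrays lay above all Gata6+Itga6+ arrays, and nearly every probe set did the same: 8 of 8 for Il1r2, 18 of 19 for Il12rb2 and 10 of 11 for Il20ra. By the brightest probe set alone the log2 changes of Il12rb2 and Il20ra were -1.13 (adjusted p = 0.581) and -0.47 (adjusted p = 0.679). Il2rg, the common gamma chain of several interleukin receptors, stood at 2.35, 2.14 and 2.19 in Gata6+Itga6+ against 3.65, 4.12 and 3.82 in remaining basal cells (at least 2.64-fold lower, limma adjusted p = 0.00469).

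Of 42 cytokine receptors and ligands 3 were lower and 1 higher, and 1 and 1 against remaining basal replicate 3 alone. Of 17 genes of the interleukin 1 family 2 were lower and 1 higher, and 2 and 0 against that array. Il1f9, interleukin 36 gamma, was lower at 1.60, 1.80 and 1.98 in Gata6+Itga6+ against 2.43, 3.50 and 3.63 in remaining basal cells. The receptor chain Il18r1 was higher at 3.56, 3.02 and 3.14 in Gata6+Itga6+ against 1.85, 1.74 and 1.62 in remaining basal cells. Il7, a growth factor of lymphocytes, was higher at 3.29, 2.88 and 2.62 in Gata6+Itga6+ against 1.58, 2.15 and 1.44 in remaining basal cells. Il1r1, the signalling receptor of interleukin 1, did not pass the test, at 5.20, 5.16 and 5.51 in Gata6+Itga6+ against 4.75, 4.08 and 4.93 in remaining basal cells. Since several of these chains are also made by lymphocytes, T cell markers are given beside them: 11 of 13, Ptprc, Cd3d, Cd3e and Cd3g among them, were under the silent level on all 6 arrays. Thy1 was an exception, at 2.08, 1.89 and 2.14 in Gata6+Itga6+ against 5.10, 3.36 and 3.19 in remaining basal cells (adjusted p = 0.145), and the summed intensity of the list ran from 32.2 to 38.6 in Gata6+Itga6+ and from 38.0 to 65.4 in remaining basal arrays. The part of Thy1-bearing cells in the receptor differences was not tested. The Il1f9 call ended without any Gata6+Itga6+ array, any Gata6+Itga6- array, any CD34+ array or remaining basal replicate 2 or 3 (adjusted p up to 0.139) and with brightness in the fit (adjusted p = 0.0775). That of Il18r1 ended without Gata6+Itga6+ replicate 1 or 3 or remaining basal replicate 1 or 2 (adjusted p up to 0.0712) and with brightness in the fit (adjusted p = 0.113). That of Il7 ended without Gata6+Itga6+ replicate 1 or 2 or remaining basal replicate 1 (adjusted p up to 0.0814).

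Other lower genes had varied roles. Antxr1, an anthrax toxin receptor that binds collagen, stood at 4.28, 4.20 and 4.03 in Gata6+Itga6+ against 6.89, 7.11 and 7.55 in remaining basal cells (8.09-fold lower, limma adjusted p = 0.00768). Ndufa4l2, a hypoxia-inducible mitochondrial protein, stood at 2.89, 2.79 and 2.16 in Gata6+Itga6+ against 5.57, 5.44 and 4.86 in remaining basal cells (6.39-fold lower, limma adjusted p = 0.00254). It and Hk2 (hexokinase, higher by at least 1.42-fold) were the called members of 33 glycolysis and hypoxia genes, in opposite directions, and none was called against remaining basal replicate 3 alone. Phldb2, which anchors microtubules near adhesions, stood at 2.24, 3.07 and 2.84 in Gata6+Itga6+ against 4.67, 5.23 and 5.85 in remaining basal cells (5.8-fold lower, limma adjusted p = 0.00315). Rab27a, a small GTPase of secretory vesicles, stood at 3.73, 3.86 and 3.89 in Gata6+Itga6+ against 5.88, 6.24 and 6.46 in remaining basal cells (5.16-fold lower, limma adjusted p = 4.9e-05), the smallest adjusted p of the lower genes. Its Gata6+Itga6+ arrays hardly varied. The call of Hk2 ended without Gata6+Itga6+ replicate 1 or 3, any Gata6+Itga6- array, any CD34+ array or remaining basal replicate 1 or 2 (adjusted p up to 0.17) and with brightness in the fit (adjusted p = 0.257).

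Protease inhibitors of the serpin family split. Serpinb2, an inhibitor of plasminogen activators, stood at 4.48, 5.28 and 4.15 in Gata6+Itga6+ against 6.48, 6.75 and 7.49 in remaining basal cells (4.82-fold lower, limma adjusted p = 0.00615). Serpinb7 stood at 2.66, 2.00 and 1.99 in Gata6+Itga6+ against 3.57, 4.67 and 4.57 in remaining basal cells (at least 3.5-fold lower, limma adjusted p = 0.0055). Serpina3g stood at 5.74, 5.59 and 5.96 in Gata6+Itga6+ against 2.05, 2.43 and 2.36 in remaining basal cells (at least 9.87-fold higher, limma adjusted p = 0.00425). The protease Prss23 was lower at 3.90, 4.41 and 4.23 in Gata6+Itga6+ against 5.61, 6.94 and 6.87 in remaining basal cells (4.9-fold), and of 43 proteases and inhibitors 2 were higher and 2 lower, and 1 and 3 against remaining basal replicate 3 alone. The transporters Slc6a6, for taurine, and Slco2a1, for prostaglandins, were lower by 4.26-fold and 2.31-fold, and Gabrp, a subunit of a chloride channel, by 3.31-fold. Prss23 was lost without Gata6+Itga6+ replicate 1 or 3 or remaining basal replicate 2 (adjusted p up to 0.0698). Slc6a6 was lost without Gata6+Itga6+ replicate 1 or 3 or any remaining basal array (adjusted p up to 0.0901). Slco2a1 was lost without Gata6+Itga6+ replicate 1 or 2 or remaining basal replicate 2 or 3 (adjusted p up to 0.1). Gabrp was lost without Gata6+Itga6+ replicate 1 or 3, any Gata6+Itga6- array or any remaining basal array (adjusted p up to 0.0925) and with brightness in the fit (adjusted p = 0.145). Of the 29 genes of the interfollicular basal list, which described the other side of the comparison, 4 were lower (Il1r2, Bmp4, Igfbp3 and Ccn1) and 2 higher (Sostdc1 and Efnb1), with a median log2 change of -0.23 (-0.082 with low levels raised to the silent level). Against remaining basal replicate 3 alone 3 of the list were lower and none higher.

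Some of the largest changes fell outside the lists. Gas7, a regulator of actin and cell shape, stood at 5.75, 5.59 and 5.92 in Gata6+Itga6+ against 2.64, 2.74 and 2.87 in remaining basal cells (8.03-fold higher, limma adjusted p = 5.3e-06). Capn2, a calcium-dependent protease, stood at 5.15, 5.74 and 5.59 in Gata6+Itga6+ against 2.27, 2.22 and 2.46 in remaining basal cells (at least 8.18-fold higher, limma adjusted p = 0.0002). Ndrg2 stood at 6.60, 6.08 and 6.74 in Gata6+Itga6+ against 3.83, 2.66 and 3.72 in remaining basal cells (8.39-fold higher, limma adjusted p = 0.000924). All 3 were also called against remaining basal replicate 3 alone. On the lower side, the chromatin organizer Satb1 stood at 3.75, 4.54 and 3.87 in Gata6+Itga6+ against 5.23, 5.23 and 6.07 in remaining basal cells (2.75-fold lower). The carbonyl reductase Cbr2 stood at 4.85, 3.84 and 4.47 in Gata6+Itga6+ against 5.86, 5.94 and 6.97 in remaining basal cells (3.65-fold lower). Cpxm2, a carboxypeptidase-like protein, stood at 4.26, 4.09 and 3.49 in Gata6+Itga6+ against 5.17, 5.03 and 6.03 in remaining basal cells (2.76-fold lower). The Satb1 call ended without Gata6+Itga6+ replicate 1 or 3, any Gata6+Itga6- array, CD34+ replicate 1 or 2 or any remaining basal array (adjusted p up to 0.162). That of Cbr2 ended without Gata6+Itga6+ replicate 2 or 3, Gata6+Itga6- replicate 1 or 3 or remaining basal replicate 1 or 2 (adjusted p up to 0.0994). That of Cpxm2 ended without Gata6+Itga6+ replicate 2 or 3 or remaining basal replicate 1 (adjusted p up to 0.0887).

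Differentiation genes of the spinous and granular layers rose in part while the early suprabasal keratins did not. Of 42 genes 8 were higher and none lower, but only 2 higher and 1 lower against remaining basal replicate 3 alone. Sprr1a, a cornified envelope precursor, stood at 7.92, 7.08 and 6.44 in Gata6+Itga6+ against 2.72, 2.82 and 4.65 in remaining basal cells (13.5-fold, limma adjusted p = 0.00469); the 2 dimmer remaining basal arrays were the lowest. Calml3, a calmodulin-like protein, stood at 5.41, 5.05 and 4.92 in Gata6+Itga6+ against 3.72, 3.87 and 3.72 in remaining basal cells (2.56-fold, limma adjusted p = 0.00172). Sbsn and Dmkn, secreted proteins of upper layers, had log2 changes of 1.93 and 2.33, and the protease inhibitor Spink5 of 1.34. Ivl, involucrin of the cornified envelope, was at least 1.27-fold higher. Krt1 stood at 7.69, 7.19 and 6.12 in Gata6+Itga6+ against 6.79, 7.17 and 7.47 in remaining basal cells and Krt10 at 9.60, 9.61 and 9.28 in Gata6+Itga6+ against 9.25, 9.13 and 9.52 in remaining basal cells, with overlapping arrays and no call. Sbsn lost its call without Gata6+Itga6+ replicate 1 or 3, any Gata6+Itga6- array, CD34+ replicate 3 or remaining basal replicate 1 or 2 (adjusted p up to 0.128) and with brightness in the fit (adjusted p = 0.214). Dmkn lost it without any Gata6+Itga6+ array (adjusted p up to 0.0878) and with brightness in the fit (adjusted p = 0.154). Ivl lost it without Gata6+Itga6+ replicate 1 or 2 or remaining basal replicate 1 or 2 (adjusted p up to 0.0951) and with brightness in the fit (adjusted p = 0.156). Spink5 lost it without Gata6+Itga6+ replicate 1 or 2 or remaining basal replicate 1 or 2 (adjusted p up to 0.0848) and with brightness in the fit (adjusted p = 0.125).

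Of the cell cycle list 1 gene was called, beside 1.36% of all genes. Top2a, a topoisomerase needed to part chromosomes, stood at 4.97, 5.23 and 5.34 in Gata6+Itga6+ against 3.03, 3.97 and 4.36 in remaining basal cells (log2 change 1.40, SE 0.27, limma adjusted p = 0.0372) and was the 1 call among 37 listed cell cycle genes. Outside that list, the mitotic kinase Ttk (3.20 ± 0.23 against 2.24 ± 0.30, at least 1.67-fold) and the condensin subunit Ncaph (2.77 ± 0.20 against 1.91 ± 0.17, at least 1.24-fold) were also called higher. Ttk and Ncaph were chosen after their values were seen, and by its brightest probe set the change of Ttk went the other way. Mki67, a marker of dividing cells, stood at 4.27, 5.15 and 5.04 in Gata6+Itga6+ against 3.28, 3.52 and 4.47 in remaining basal cells without passing the test (adjusted p = 0.172), and its arrays overlapped. Both genes were lower outside these populations: Top2a averaged 1.67 in CD34+ and 2.41 in Gata6+Itga6- cells, and Mki67 1.94 in CD34+ and 2.06 in Gata6+Itga6- cells. The Top2a call ended without any Gata6+Itga6+ array, any Gata6+Itga6- array, any CD34+ array or remaining basal replicate 2 (adjusted p up to 0.149), with brightness in the fit (adjusted p = 0.228) and after quantile normalization (adjusted p = 0.064). That of Ttk ended without Gata6+Itga6+ replicate 1 or 3 or remaining basal replicate 2 (adjusted p up to 0.0753) and with brightness in the fit (adjusted p = 0.156). That of Ncaph ended without Gata6+Itga6+ replicate 1 or 3 or remaining basal replicate 2 (adjusted p up to 0.062) and with brightness in the fit (adjusted p = 0.0944). No member of 14 cyclin-dependent kinase inhibitors and D cyclins was called, and at a share of 1.36% a list of 14 can hold none. Of 37 immediate early genes, which tissue digestion can induce, Egr2 was higher and Ccn1 lower, and none was called against remaining basal replicate 3 alone.

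Markers of cell types other than keratinocytes were mostly near background, with a few exceptions. The summed intensity of 18 Langerhans cell and macrophage markers ran from 69.1 to 122.7 in Gata6+Itga6+ and from 56.2 to 64.7 in remaining basal arrays. Epcam, an adhesion molecule that Langerhans cells and some keratinocytes make, was the called member, at 6.07, 4.52 and 5.39 in Gata6+Itga6+ against 3.71, 3.30 and 3.93 in remaining basal cells (3.21-fold higher, limma adjusted p = 0.0368). Without it the sums were 46.7 to 56.5 and 47.4 to 50.4, and 12 of the 18, Cd207, Ptprc, Csf1r and Adgre1 among them, were under the silent level on all 6 arrays. Cd74, of the same list, stood at 2.75, 1.90 and 2.31 in Gata6+Itga6+ against 1.70, 1.87 and 1.52 in remaining basal cells. It was not called (limma adjusted p = 0.29). For 13 melanocyte markers the sums were 48.3 to 55.1 against 42.7 to 44.2, with the transcription factor Mitf called at 4.12, 3.81 and 3.98 in Gata6+Itga6+ against 2.55, 2.94 and 3.08 in remaining basal cells (2.17-fold higher, limma adjusted p = 0.0263). Without Mitf they were 33.8 to 38.7 against 35.3 to 38.7, and the pigment genes Dct, Tyr and Tyrp1 were under the silent level throughout. Sums of 11 Merkel cell markers were 24.4 to 25.3 against 27.3 to 33.1, and of 11 muscle, adipocyte and erythrocyte markers 41.9 to 51.5 against 38.6 to 41.7, with no member called. Sums were larger for lists of follicle keratinocytes. For 22 inner root sheath and hair shaft markers they were 248.2 to 299.5 in Gata6+Itga6+ against 285.0 to 443.7 in remaining basal arrays, with none called. For 9 companion layer and inner bulge markers they were 193.2 to 241.8 against 119.9 to 193.4, with 1 called higher. The part of any of these cells in the differences above was not tested. The Epcam call ended without Gata6+Itga6+ replicate 1 or 3, any Gata6+Itga6- array, any CD34+ array or remaining basal replicate 1 or 2 (adjusted p up to 0.147), with brightness in the fit (adjusted p = 0.22) and after quantile normalization (adjusted p = 0.0926). That of Mitf ended without Gata6+Itga6+ replicate 1 or 3 or remaining basal replicate 1 or 2 (adjusted p up to 0.098) and with brightness in the fit (adjusted p = 0.163).

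**Figure D4:**
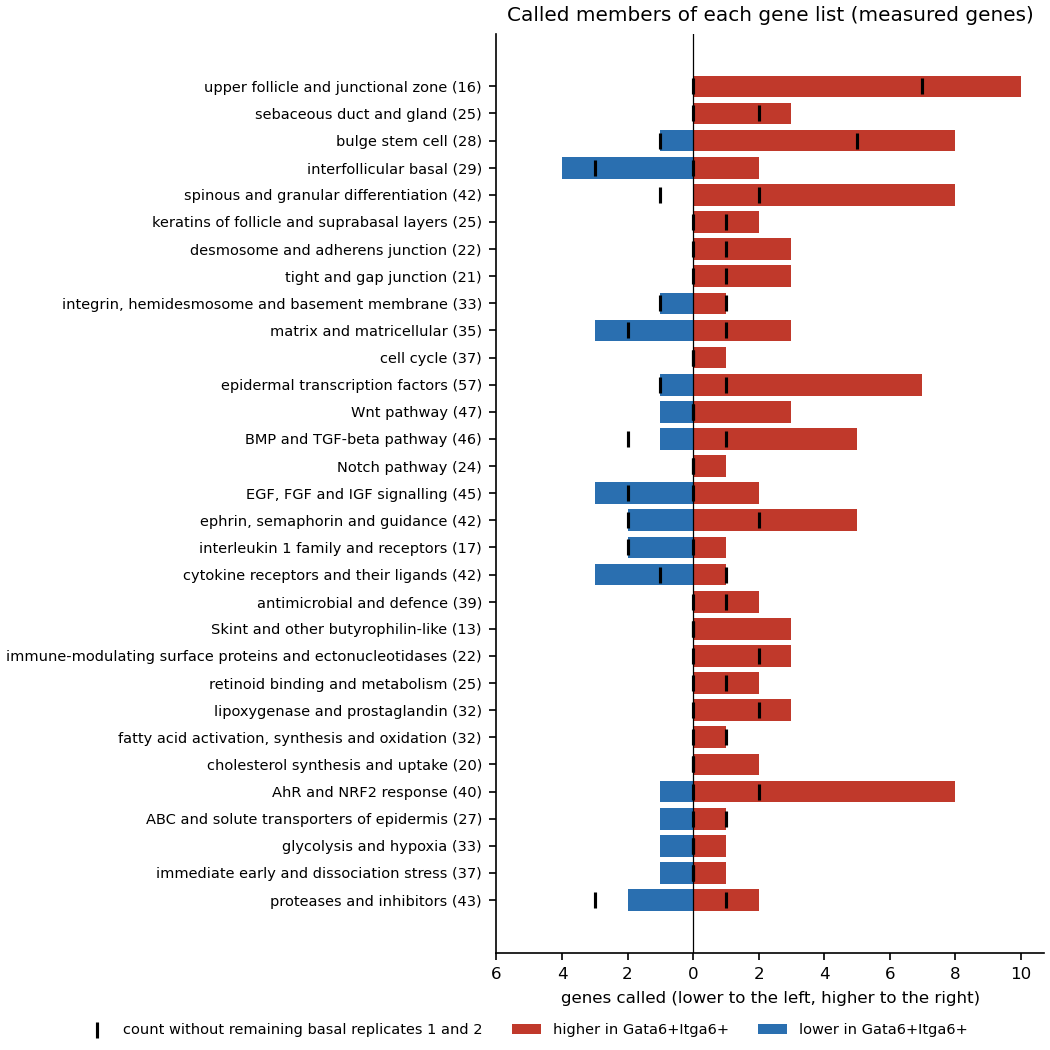
Number of measured members called higher (to the right) and lower (to the left) in each gene list, with the number measured in brackets, and ticks for the counts against remaining basal replicate 3 alone. The upper follicle list has 10 of 16 members higher, and the tick stands at 7.

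The levels in the other populations place the called genes. Because the same Gata6+Itga6+ and remaining basal arrays enter every such comparison, levels are given side by side and no overlap is counted. Krt79, Cst6 and Defb6 were highest in Gata6+Itga6- cells, at 9.52, 9.09 and 9.44, and near or under the silent level in CD34+ cells, at 2.63, 2.25 and 1.90. Cgnl1, by contrast, averaged 6.08 in CD34+ and 6.07 in Gata6+Itga6- cells, much as in Gata6+Itga6+ cells (5.82), and stood low only in remaining basal cells (2.07). Itgb8 was likewise lowest in remaining basal cells, with 4.83 in CD34+ and 4.53 in Gata6+Itga6- cells beside 5.22 in Gata6+Itga6+ and 2.33 in the remaining basal population. Aldh3a1 was highest in Gata6+Itga6+ cells, at 7.41 beside 5.02 in CD34+ and 4.50 in Gata6+Itga6- cells and 5.03 in remaining basal cells.

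The lower genes showed another arrangement. Il1r2 averaged 1.76 in CD34+ and 1.65 in Gata6+Itga6- cells, Il12rb2 1.84 in CD34+ and 2.11 in Gata6+Itga6- cells and Bmp4 1.64 in CD34+ and 1.54 in Gata6+Itga6- cells. By the median of their probe sets, all 3 were thus over the silent level by a wide margin in remaining basal cells alone. Rab27a averaged 2.07 in CD34+ and 2.82 in Gata6+Itga6- cells, below the 3.82 of Gata6+Itga6+ cells. Sparc and Slc6a6 were highest in CD34+ cells, at 8.62 in CD34+ and 1.99 in Gata6+Itga6- cells, and at 8.50 in CD34+ and 2.30 in Gata6+Itga6- cells. The remaining basal mean was the highest of the 4 populations in 44 of the 51 lower genes and the lowest in 130 of the 191 higher genes, counts that the calls themselves favour.

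**Figure D5:**
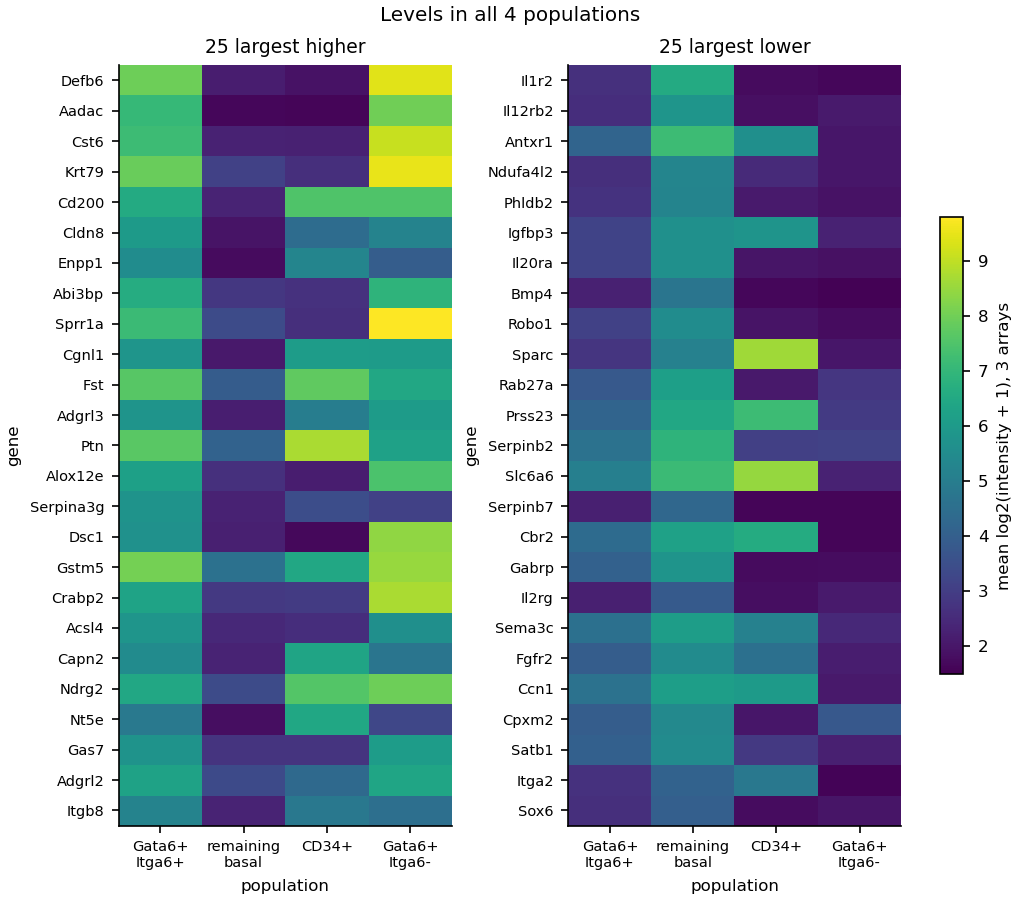
Mean log2 level in each of the 4 populations, 3 arrays each, for the 25 largest higher genes (left) and the 25 largest lower genes (right), from dark (low) to bright (high). Defb6, Aadac, Cst6 and Krt79 are bright in both Gata6+ populations, whereas Cd200, Fst and Ptn are bright in CD34+ cells as well, and Il1r2, Il12rb2 and Bmp4 are bright in remaining basal cells only.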

How the data were processed

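Per the labels, amplified cDNA from the sorted cells was labelled with biotin and read on mouse exon arrays. The authors deposited an intensity for each of 235932 probe sets, made with RMA in Affymetrix Power Tools on the mm9 build, per the submitters' processing notes; versions are not given in the sources used here. The scale of the deposited intensity values is not stated and was taken as linear, so every log2 level and fold rests on that reading. Adding 1 before the log makes folds of dim genes smaller.

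The 221205 probe sets with 1 gene symbol were used; 1684 had several and 13043 no listed gene. Symbols were updated with RefSeq's gene table of GRCm38.p6, which also gave the upstream sequences. A gene's level is the median of its probe sets (median 10), which gave 17853 genes. limma 3.58.1 in R 4.3.3 fitted 1 mean per population to all 12 arrays (prior degrees of freedom 2.12, residual 8), with Benjamini-Hochberg adjustment over all genes. The procedure was tested on simulated data. A fold is the log2 change taken out of the log. An exact permutation test of 3 against 3 arrays cannot go below 0.1 and was not used.

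The comparison, the 47 gene lists (1129 measured genes) and the named genes were chosen with earlier results of these data known, so list counts are descriptions and no list was tested. Named genes are the sort genes, the 25 largest called genes in each direction, passing over predicted gene models, called list members, up to 3 uncalled members per list, and markers. Ahr, Apoe, Bmpr1a, Cyp1a1, Cyp27a1, Ncaph, Nog, Nqo1, Scd1 and Ttk were chosen after their values were seen. So were named markers of other cell types, among them Adgre1, Cd207, Cd3d, Cd3e and Cd3g. Alternatives were other fits, scalings, pseudocounts, gene summaries, a filter on dim genes, a block and leaving out arrays.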

Additional observations from a re-analysis of the deposited data

How the results depend on the processing

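The counts of 191 higher and 51 lower genes moved by more than 1.5 times under several settings. They were 102 and 8 in a fit of only these 6 arrays, 350 and 104 with the mean of probe sets, and 79 higher with array brightness as a covariate. Quantile normalization gave 126 lower genes, the brightest probe set 27 lower, and remaining basal replicate 3 alone 43 higher. Leaving out 1 of the 12 arrays in turn gave 93 to 304 higher genes (without remaining basal replicate 1 and 3) and 26 to 46 lower ones (without Gata6+Itga6+ replicate 3 and Gata6+Itga6- replicate 2). The array position letter as a block, array weights, trended robust variances, pseudocounts of 0.5 and 4 and the filter on dim genes kept both counts within 1.5 times. All called genes kept their direction under quantile normalization and the brightness covariate. With the brightest probe set 81 of the 191 higher and 7 of the 51 lower genes were called again. The log2 changes of Marveld2, Sema6a and Ttk then changed sign, to -0.0072, -0.27 and -0.22.

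The labels do not say what a replicate number shares, so the numbers were not treated as pairs in the main fit. Deviations from the population means of same-numbered arrays correlated at 0.0518, 0.0518 and 0.102 across genes, and each array correlated best with its own number. Whether same-numbered arrays share a batch was not tested. With the replicate number as a block the counts were 164 higher and 40 lower in the fit of 12 arrays, and 30 and 2 in the fit of 6, where the block takes 2 more degrees of freedom.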
